A study of Mus musculus with 9 samples.

Results

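The miR-103 and miR-107 family is represented here by 2 mature miRNAs, miR-103-3p and miR-107-3p, out of 358 miRNA entries placed in the MIN6 libraries. Both were taken by name, and each was located at the 5′ end whose summed counts, scaled to reads per 1000000 mapped reads (RPMM), equal the values the study lists for that name. The precursor copies of miR-103-3p, Mir103-1 and Mir103-2, carry the same mature sequence and were merged. The study asked how the choice of a small RNA library kit alters the miRNA profile of a sample. MIN6, a mouse insulinoma line that serves as a model of pancreatic beta cells, was grown in DMEM with 25 mM glucose and 10% heat-inactivated fetal bovine serum, and total RNA was made into 3 libraries with the Illumina TruSeq kit on the GAIIx (TS-GAIIx), 3 libraries with the Illumina v1.5 kit on the GAIIx (v1.5-GAIIx) and 1 library with the Bioo Scientific NEXTflex V2 kit on the HiSeq (NF-HiSeq). Total RNA of whole liver from 1 C57BL/6J female mouse was made into 1 TruSeq library (TS-HiSeq-ML) and 1 NEXTflex library (NF-HiSeq-ML). This control animal was bought at 9 weeks of age, received saline through the tail vein after 10 days of acclimation, and was killed after an overnight fast 7 days later. The TruSeq and v1.5 kits join 1 fixed adapter sequence to each end of the RNA, whereas the NEXTflex adapters carry degenerate bases at the ligation boundary. NF-HiSeq also differed from the GAIIx libraries in the RNA, the platform and the facility, so these factors cannot be told apart from the kit. Both liver libraries were sequenced on the HiSeq, so for the TruSeq kit the platform cannot be told apart from the source of the RNA. The study calls the 3 libraries of a group biological replicates without naming their cultures, and p-values measure only the spread between these libraries.

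miR-103 and miR-107 are vertebrate miRNAs that lie in introns of the pantothenate kinase genes, whose products carry out the first step of coenzyme A synthesis. They share the seed, the stretch near the 5′ end through which a miRNA pairs with its targets, and are therefore thought to act on a common set of mRNAs. In liver and adipose tissue of mice they are known as negative regulators of insulin sensitivity, with caveolin-1, a stabilizer of the insulin receptor at the cell surface, as a target.

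The mature sequences below, from RefSeq (GRCm38.p6), show why read length matters for this family. Capitals mark the seed, bases 2 to 8, and base 22, the only one that differs (G22C, the miR-103-3p base first, positions counted from 1 at the 5′ end).
miR-103-3p: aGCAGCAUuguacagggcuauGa
miR-107-3p: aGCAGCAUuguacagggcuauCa
Both are 23 nt long. A read of 21 nt or less cannot tell them apart, and 100% of the miR-107-3p counts of that length were held in equal parts by the 3 loci in every library (equal within 1e-06 counts). Such counts name no member.

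All 3 loci are intronic. In GRCm38 the mature miR-103-3p lies at chr11:35782447-35782469 on the plus strand in an intron of Pank3 (Mir103-1) and at chr2:131288103-131288125 on the plus strand in an intron of Pank2 (Mir103-2). The mature miR-107-3p lies at chr19:34820700-34820722 on the minus strand in an intron of Pank1. No exon of a host gene overlaps any of the 3 hairpins in the annotation. The deposited alignments use mm9, where the 5′ ends of the members are at 35595948, 131113838 and 34895211 on the same chromosomes and strands. The hairpins are shown because reads that run past base 24 are the only ones that separate the copies. Capitals mark the mature arms.
Mir103-1: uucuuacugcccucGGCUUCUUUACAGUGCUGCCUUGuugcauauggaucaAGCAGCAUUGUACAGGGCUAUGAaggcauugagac
Mir103-2: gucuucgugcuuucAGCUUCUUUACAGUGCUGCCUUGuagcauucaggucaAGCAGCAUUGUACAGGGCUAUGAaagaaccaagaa
Mir107: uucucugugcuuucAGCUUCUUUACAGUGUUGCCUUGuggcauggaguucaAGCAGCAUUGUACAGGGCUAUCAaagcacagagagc

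The deposited counts summed to 6923460 to 12458630 in TS-GAIIx, 10800301 to 13158853 in v1.5-GAIIx, 25638871 in NF-HiSeq, 17875869 in TS-HiSeq-ML and 14426009 in NF-HiSeq-ML. The NEXTflex libraries hold fewer distinct alignments at this depth. Among exact alignments with a whole-number count, the median count of an alignment was 35 and 48 in the NEXTflex libraries of MIN6 and liver and 1 in the other 7. The labelled sources match their markers. The beta cell miRNA miR-375-3p was at 64950 to 186331 RPMM in the MIN6 libraries and at 40.0 and 26.7 RPMM in liver. The hepatocyte miRNA miR-122-5p was at 17244 and 532452 RPMM in the TruSeq and NEXTflex liver libraries and at 0.151 to 2.38 RPMM in the GAIIx libraries of MIN6, but at 128 RPMM in NF-HiSeq. The part of liver RNA or reads in NF-HiSeq was not tested. Liver also held RNA of other cells, with levels that differed between the kits for some of their miRNAs. The stromal miR-143-3p was at 9373 and 1745 RPMM in TS-HiSeq-ML and NF-HiSeq-ML and miR-199a-3p at 353 and 335 RPMM, the endothelial miR-126-3p at 463 and 1884 RPMM and miR-126-5p, from the same hairpin, at 8505 and 841 RPMM, and the leukocyte miR-142-5p at 3777 and 27.7 RPMM. Of the 10 markers of blood, leukocytes, endothelium and stroma, 7 were placed and 3 (miR-144-3p, miR-142-3p and miR-223-3p) were not, and their part in the liver levels of the family was not tested. In bulk RNA, fewer cells of a type and less RNA per cell cannot be told apart.

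Scaled by mapped reads, the v1.5 libraries of MIN6 held over 10 times as much miR-103-3p as the TruSeq libraries, while the ranges of miR-107-3p overlapped. miR-103-3p was at 751, 722 and 702 RPMM in the 3 TS-GAIIx libraries and at 7951, 8174 and 8713 RPMM in the 3 v1.5-GAIIx libraries. The groups were far apart, with means of 725 ± 24.4 and 8279 ± 392 RPMM (SD, n = 3 each), an 11.4-fold difference. miR-107-3p was at 80.5, 74.9 and 74.7 RPMM in TS-GAIIx and at 70.4, 71.1 and 76.4 RPMM in v1.5-GAIIx. These ranges overlap, while 92% of the 350 entries had ranges that did not, and the means were 76.7 ± 3.28 and 72.6 ± 3.30 RPMM (SD, n = 3 each, p = 0.3, exact two-sided permutation test).

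By the quasi-likelihood test of edgeR, with p-values adjusted after Benjamini-Hochberg across 350 entries, miR-103-3p was higher in v1.5-GAIIx by 3.51 on the log2 scale (SE 0.0535, adjusted p = 1.09e-12). Of all entries, 324 (92.6%) passed this test, 197 (56.3%) with more counts under v1.5 and 127 (36.3%) with more under TruSeq, so that a call by itself says little here. A difference of 3 or more on the log2 scale toward v1.5 was seen for 47 entries (13.4%) and toward TruSeq for 16, and miR-103-3p ranked 35 from the top. miR-107-3p was one of the few entries that did not pass, with a log2 difference of -0.08 (SE 0.0668, Benjamini-Hochberg adjusted p = 0.285, edgeR quasi-likelihood test). That result depends on the scaling. The median log2 difference of the 350 entries was 0.68 when libraries were scaled by mapped reads and 0.16 with TMM factors, a shift of the whole table. Relative to the median entry, the log2 difference of v1.5 against TruSeq was 2.84 for miR-103-3p and -0.76 for miR-107-3p, and with TMM factors these values were 2.83 and -0.76. With TMM factors miR-107-3p passed the same edgeR test as lower in v1.5-GAIIx, by -0.60 on the log2 scale (Benjamini-Hochberg adjusted p = 3.35e-06). With reads of 22 nt or longer only, which leaves out the shared shorter reads but keeps longer ones whose edits hide base 22, it was higher in v1.5-GAIIx by 0.17 (Benjamini-Hochberg adjusted p = 0.0262, same edgeR test). The call for miR-107-3p thus changed with the scaling, and its direction with the reads used, though relative to the median entry it was lower there too (-0.56). For miR-103-3p the log2 difference was 2.99 with TMM factors, 2.90 with DESeq2 size factors and 3.60 with reads of 22 nt or longer, so the fold is smaller under the other scalings. With whole-number counts only, which drops a count divided between its copies unless it is even, the call for miR-103-3p was lost (log2 difference 0.80, SE 1.12, Benjamini-Hochberg adjusted p = 0.538, same edgeR test).

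The single libraries give the remaining levels, with 95% exact Poisson intervals that cover counting error only. In NF-HiSeq, miR-103-3p was at 2546 RPMM (2526 to 2565) and miR-107-3p at 224 RPMM (218 to 230). The level of miR-103-3p thus lay between the TruSeq and the v1.5 groups, whereas that of miR-107-3p lay above all 6 libraries of both. In TS-HiSeq-ML, miR-103-3p was at 2088 RPMM (2066 to 2110) and miR-107-3p at 774 RPMM (760 to 787). In NF-HiSeq-ML, miR-103-3p was at 1200.19 RPMM (1182 to 1218) and miR-107-3p at 525 RPMM (513 to 537). From the highest, miR-103-3p followed the order v1.5-GAIIx, NF-HiSeq, TS-HiSeq-ML, NF-HiSeq-ML and TS-GAIIx. miR-107-3p followed the order TS-HiSeq-ML, NF-HiSeq-ML, NF-HiSeq and then TS-GAIIx and v1.5-GAIIx, whose ranges overlap. With exact alignments only, the order of its liver libraries turned, at 288 RPMM in TS-HiSeq-ML and 355 RPMM in NF-HiSeq-ML. Among the 350 entries miR-103-3p ranked 80 to 84 in TS-GAIIx, 21 to 23 in v1.5-GAIIx, 43 in NF-HiSeq and 34 in both liver libraries. miR-107-3p ranked 235 to 244, 273 to 277, 145 and, in both liver libraries, 51. Within these entries, chosen for their level in MIN6, the 2 kits placed both members at the same ranks in liver. Liver miRNAs outside this set are left out, such as miR-142-5p at 3777 RPMM in TS-HiSeq-ML and 27.7 RPMM in NF-HiSeq-ML.

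**Figure D1:**
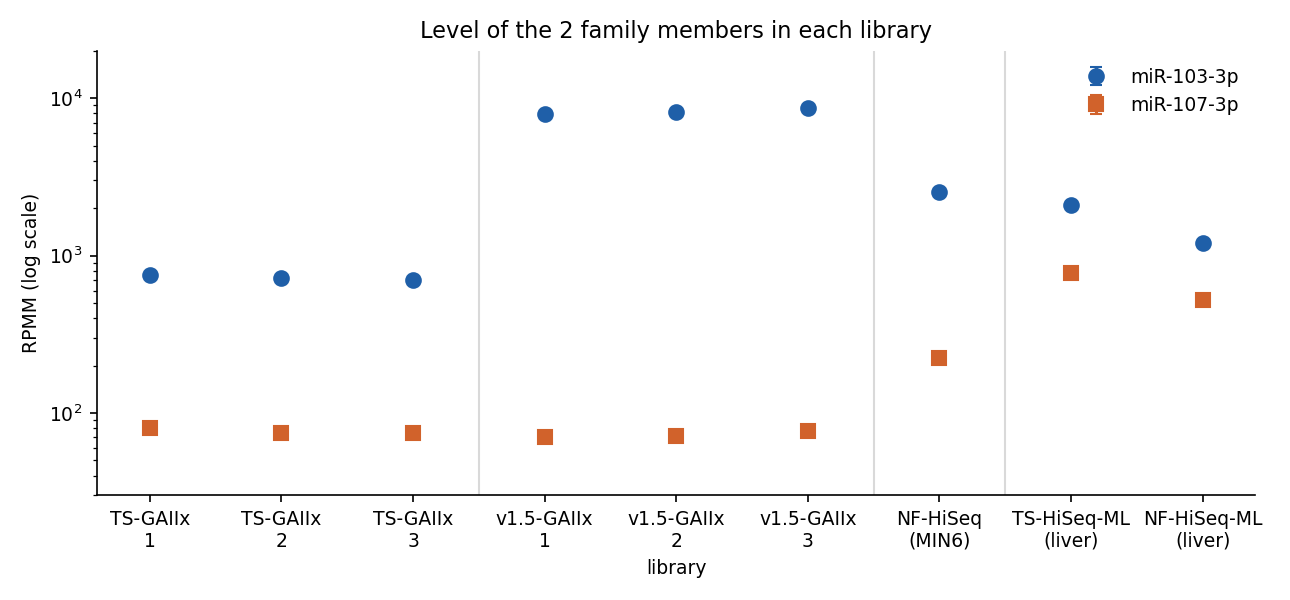
Level of miR-103-3p (circles) and miR-107-3p (squares) in each of the 9 libraries, in RPMM on a log axis, with 95% Poisson intervals that are mostly smaller than the symbols. miR-103-3p stands at 702 to 751 RPMM in the 3 TS-GAIIx libraries and at 7951 to 8713 RPMM in the 3 v1.5-GAIIx libraries, and miR-107-3p is highest in the 2 liver libraries, at 774 and 525 RPMM.

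The single libraries were compared with each other or with the mean of a GAIIx group, with 1 RPMM added and no test, since at least 1 side of each comparison has 1 library. The 350 entries were selected for their level in MIN6, which by itself lowers the share that is higher in liver, so the shares below are no measure of how unusual a rise in liver is. Between liver and MIN6 with the TruSeq kit, miR-103-3p was 2.88-fold and miR-107-3p 9.97-fold higher in liver, a direction shared by 33 of 350 entries at over 2-fold (9.43%), while 70% were over 2-fold lower in liver. With exact alignments only, these folds were 2.39 and 4.38. With the NEXTflex kit, miR-107-3p was 2.34-fold higher in liver (29 of 350 entries, 8.29%, were over 2-fold higher) but miR-103-3p was lower, at 0.472 of its MIN6 level (258 entries, 73.7%, were over 2-fold lower). Both kits thus gave more miR-107-3p in the liver library than in the MIN6 libraries, and they differed in direction for miR-103-3p, with the TruSeq libraries of liver and MIN6 also on different platforms. Against TS-GAIIx, NF-HiSeq gave 3.51-fold more miR-103-3p and 2.90-fold more miR-107-3p, where 37.4% of the entries were over 2-fold higher. Against v1.5-GAIIx, NF-HiSeq gave 0.308 of the miR-103-3p level (46.3% of the entries were over 2-fold lower) and 3.06-fold more miR-107-3p (26.9% over 2-fold higher). Between the kits in liver, NEXTflex gave 0.575 of the TruSeq level of miR-103-3p and 0.679 of that of miR-107-3p, and 45.8% of 177 entries were over 2-fold lower. For miR-107-3p this direction turned with exact alignments only, as given above. The median log2 difference of the 177 entries was -0.80, so the table as a whole stood lower with NEXTflex in liver.

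The ratio of the members within a library does not depend on library size. There were 9.33, 9.65 and 9.40 counts of miR-103-3p per count of miR-107-3p in TS-GAIIx and 113, 115 and 114 in v1.5-GAIIx. Counts held in equal parts by the 3 loci were 29.4% to 34.7% of miR-107-3p in TS-GAIIx and 22.6% to 23.5% in v1.5-GAIIx. Such counts lower the ratio in both groups and raise the share of miR-107-3p given below. The groups did not overlap, and the difference in mean log2 ratio was 3.59 (p = 0.1, exact permutation test, two-sided, the smallest p that 3 against 3 libraries allow). With whole-number counts only, it was 1.74 (p = 0.4, exact two-sided permutation test). The ratio was 11.4 in NF-HiSeq, 2.70 in TS-HiSeq-ML and 2.29 in NF-HiSeq-ML. With exact alignments only, it was 10.3, 5.22 and 2.52 in these libraries, so that the ratio in TS-HiSeq-ML moved most. As a share of the family sum, miR-107-3p made up 9.39% to 9.68% in TS-GAIIx, 0.862% to 0.877% in v1.5-GAIIx, 8.09% in NF-HiSeq and 27.04% and 30.4% in the liver libraries, or 16.1% and 28.4% there with exact alignments only. Levels of the family taken as a sum were set by miR-103-3p in every MIN6 library, and liver had the higher share of miR-107-3p with both kits.

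The difference between the kits was not the same for all read forms of a miRNA. For unedited 23-nt reads of miR-103-3p, the v1.5-GAIIx libraries held 7059, 7531 and 8044 RPMM and the TS-GAIIx libraries 511, 498 and 499 RPMM, a 15.01-fold difference of the means. For its unedited 22-nt reads, which lack the last A and end in G, the levels were 244, 276 and 289 RPMM against 76.3, 67.0 and 68.8 RPMM, a 3.81-fold difference. Reads of 21 nt, which can come from either member, were listed at the miR-103-3p starts at 18.56 to 21.005 RPMM in v1.5-GAIIx and 17.39 to 18.96 RPMM in TS-GAIIx, ranges that overlap. At 20 nt the order was the opposite, with 0.838 to 1.03 RPMM in v1.5-GAIIx and 18.4 to 25.4 RPMM in TS-GAIIx, or 22.99-fold more with TruSeq. Forms that differ by 1 base at the 3′ end thus stood 15.01-fold apart, 3.81-fold apart and in overlapping ranges.

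The read forms of miR-107-3p also differed between the kits, in opposite directions at 22 and 23 nt. Its unedited 23-nt reads were at 25.4, 27.8 and 31.1 RPMM in v1.5-GAIIx and at 8.88, 8.03 and 8.97 RPMM in TS-GAIIx, 3.26-fold higher with v1.5. Its unedited 22-nt reads, which end in C, were at 20.5, 20.5 and 22.5 RPMM in v1.5-GAIIx and at 33.4, 32.1 and 34.8 RPMM in TS-GAIIx, 1.58-fold higher with TruSeq. Both forms had ranges that did not overlap, in opposite directions, each with p = 0.1 by an exact two-sided permutation test. In TS-GAIIx there were 3.76 to 4 unedited 22-nt reads per 23-nt read of miR-107-3p, and in v1.5-GAIIx 0.724 to 0.809. The other libraries had 0.364 (NF-HiSeq), 1.54 (TS-HiSeq-ML) and 0.413 (NF-HiSeq-ML), so in MIN6 the 22-nt end was the commoner one with TruSeq and the 23-nt end with v1.5 and NEXTflex.

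The ratio of the members was also taken within 1 unedited read form. Among unedited 22-nt reads, where miR-103-3p ends in G and miR-107-3p in C, the ratio was 1.98 to 2.28 in TS-GAIIx, 11.9 to 13.4 in v1.5-GAIIx and 8.14 in NF-HiSeq. In liver it was 0.897 and 0.746 with the TruSeq and NEXTflex kits, so that miR-107-3p was the more abundant member among these unedited reads. Among unedited 23-nt reads, where both end in A and differ only at the base before it, the ratio was 55.6 to 62.0 in TS-GAIIx, 259 to 278 in v1.5-GAIIx and 11.9 in NF-HiSeq, and 14.7 and 3.02 in the liver libraries. With NEXTflex the ratios at 22 and 23 nt in MIN6, 8.14 and 11.9, were closer to each other than with either fixed-adapter kit, where they differed more than 20-fold.

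**Figure D2:**
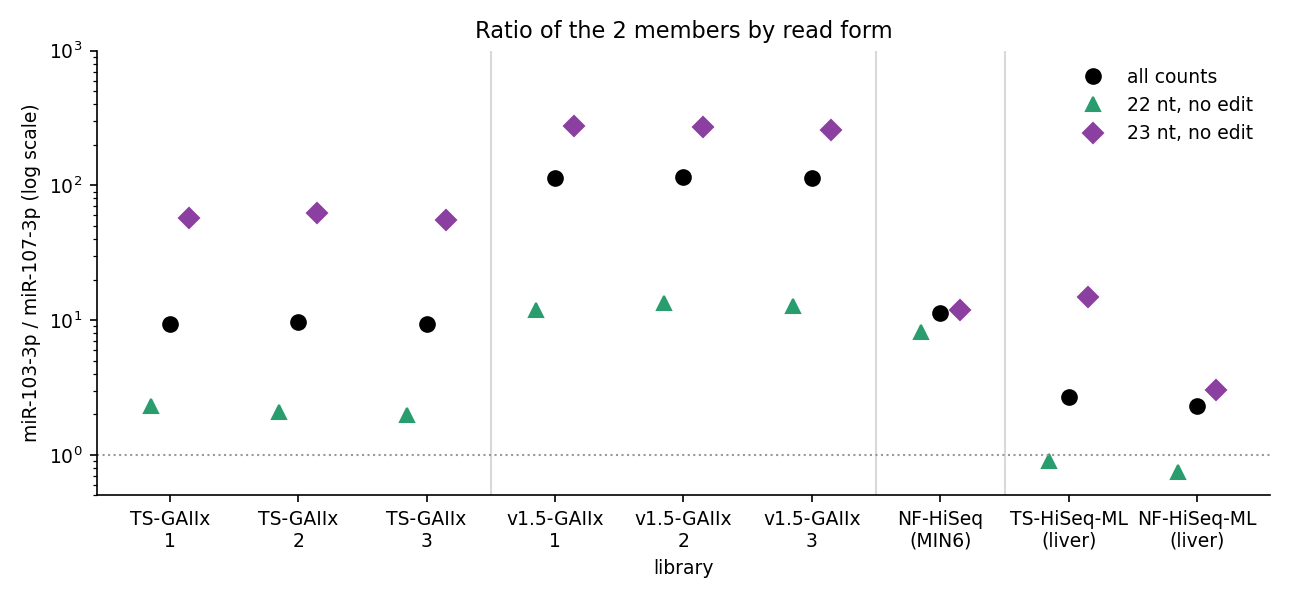
Ratio of miR-103-3p to miR-107-3p in each library on a log axis, for all counts (circles), unedited 22-nt reads (triangles) and unedited 23-nt reads (diamonds); the dotted line marks equal levels. In the 3 v1.5-GAIIx libraries the ratio over all counts is 113 to 115, against 9.33 to 9.65 in TS-GAIIx, and only the 22-nt reads of liver fall below 1 (0.897 and 0.746).

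Since a miR-103-3p read whose base 22 is misread as C is a perfect miR-107-3p read, the scarce 23-nt counts of miR-107-3p in v1.5-GAIIx have to be read beside the mismatches at that base. Reads of 23 nt with A at position 22, which match neither member and were held by all 3 loci, summed to 7.63 to 10.0 RPMM in v1.5-GAIIx, next to 25.4 to 31.1 RPMM of unedited 23-nt miR-107-3p. Reads with U at that position summed to 0.397 to 0.670 RPMM. In TS-GAIIx the corresponding sums were 0.146 to 0.753 RPMM for A and 0 for U. Such reads made up 3.89% to 4.58% of the counts at the miR-107-3p start in v1.5-GAIIx and 0.0650% to 0.312% in TS-GAIIx. How many reads with C at position 22 came from miR-103-3p was not tested.

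Read lengths summarise these shifts. miR-103-3p had a mean length of 22.79, 22.82 and 22.83 nt in TS-GAIIx and 22.98 nt in each v1.5-GAIIx library, 22.95 nt in NF-HiSeq, 22.92 nt in TS-HiSeq-ML and 23.09 nt in NF-HiSeq-ML. The full 23 nt made up 74.7% to 76.8% of its counts in TS-GAIIx and 94.9% to 95.1% in v1.5-GAIIx, and 72.6%, 74.3% and 70.1% in the single libraries. Counts at the miR-107-3p start had a lower mean length than those of miR-103-3p in every library. They averaged 21.70, 21.73 and 21.82 nt in TS-GAIIx and 22.38 to 22.41 nt in v1.5-GAIIx. In the single libraries the means were 22.76 nt (NF-HiSeq), 22.68 nt (TS-HiSeq-ML) and 22.93 nt (NF-HiSeq-ML). Reads of 21 nt or less, divided evenly among the 3 loci, are included and weigh more on the scarcer member. Whether miR-107-3p itself was shorter cannot be told from these means. Reads of 22 nt or longer were 68.0% to 72.9% of its counts in TS-GAIIx, 82.7% to 84.4% in v1.5-GAIIx and 93.1%, 91.6% and 95.9% in the single libraries, while they were 93.1% to 94.2%, 99.7% and 93.8% to 98.8% for miR-103-3p. Not all of these name a member, since edited reads can hide base 22, and counts held in equal parts by the 3 loci were 29.4% to 34.7% of miR-107-3p in TS-GAIIx, 22.6% to 23.5% in v1.5-GAIIx, 7.05% in NF-HiSeq, 12.8% in TS-HiSeq-ML and 9.34% in NF-HiSeq-ML. Both members were longer in all v1.5-GAIIx than in all TS-GAIIx libraries (p = 0.1 each, exact two-sided permutation test), as were 149 of the 312 entries with enough reads in each of these libraries (47.8%), while 124 (39.7%) were shorter in all. The gain of miR-107-3p in mean length, 0.648 nt, ranked 21 of 312, and that of miR-103-3p, 0.166 nt, ranked 86. Keeping whole-number counts only drops many of the shared short reads, and any miR-103-3p count halved between its copies unless it is even. This removed 93.1%, 92.6% and 7.61% of the miR-103-3p counts in TS-GAIIx and 92.3% to 95.8% in v1.5-GAIIx. With this choice the difference for miR-103-3p turned to -0.504 nt (p = 0.3), the gain of miR-107-3p was 0.377 nt (p = 0.1), and that in its share of 22 nt or longer went from 13.5 to 2.33 percentage points (p = 0.5, exact two-sided permutation tests).

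**Figure D3:**
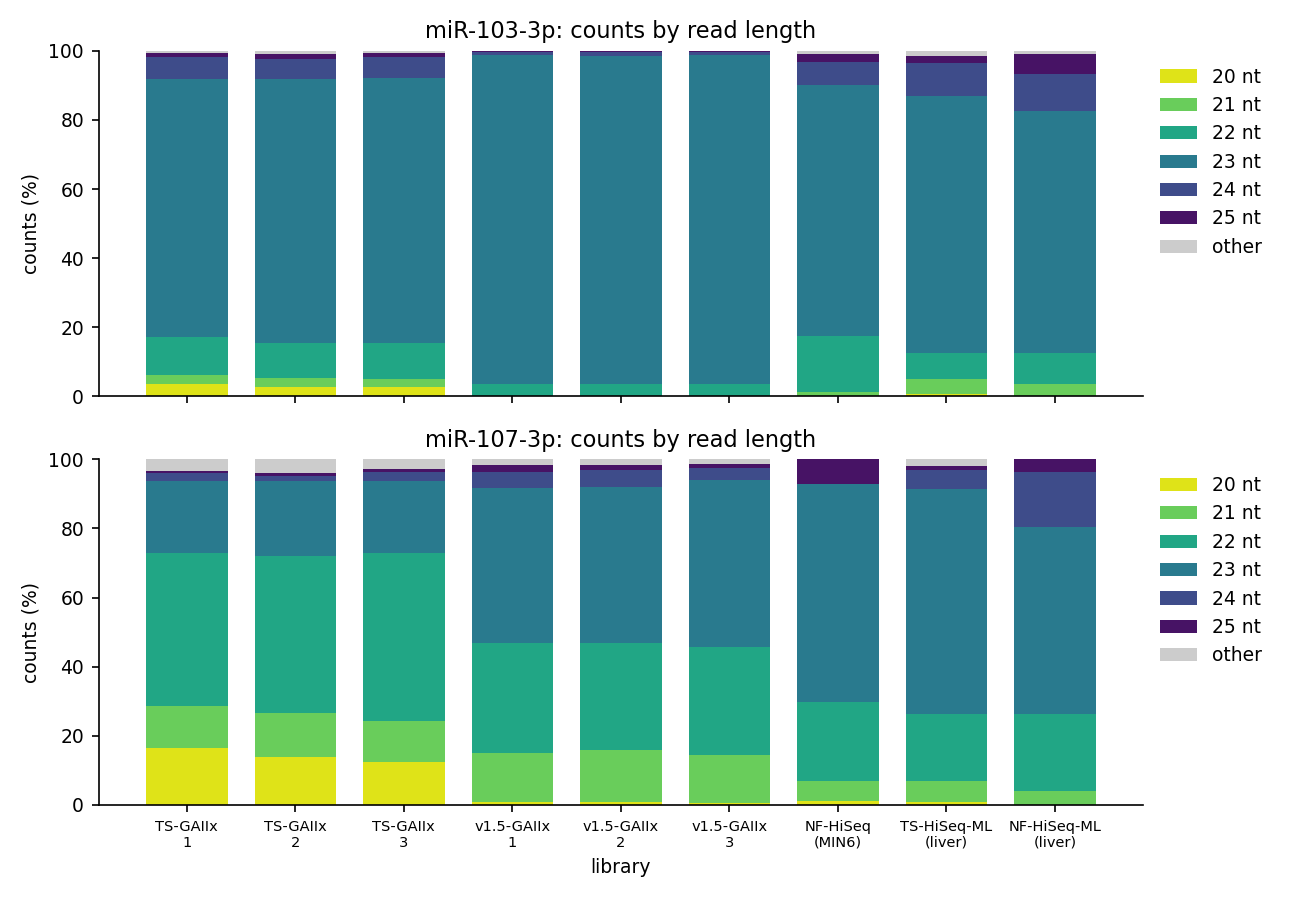
Counts at the start of miR-103-3p (top) and miR-107-3p (bottom) by read length, as a percent of the counts of that miRNA in each of the 9 libraries. The 23-nt share of miR-103-3p is 94.9% to 95.1% in v1.5-GAIIx and 74.7% to 76.8% in TS-GAIIx, and miR-107-3p shows 44.1% to 48.7% of 22-nt reads in TS-GAIIx; its reads of 20 and 21 nt cannot be told apart from those of miR-103-3p.

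Edit strings give the bases of a read that are not in the genome. Among them was a U at the 3′ end, a modification that terminal uridyltransferases are known to add to miRNAs. The 22-nt forms with 1 such U are shown, with the U in capitals, because that of miR-107-3p was the commonest form of this miRNA in TS-HiSeq-ML.
miR-103-3p, 22 nt and 1 untemplated U: agcagcauuguacagggcuaugU
miR-107-3p, 22 nt and 1 untemplated U: agcagcauuguacagggcuaucU
Edits of any kind were found in 12.4% to 14.5% of the miR-103-3p counts in TS-GAIIx and 3.63% to 7.46% in v1.5-GAIIx (p = 0.1, exact two-sided permutation test). For miR-107-3p the shares overlapped, at 13.2% to 17.1% and 13.4% to 18.1% (p = 1.0, exact two-sided permutation test), with no steady direction when a library was left out. With whole-number counts only, the difference for miR-107-3p was -8.00 percentage points (p = 0.1, exact two-sided permutation test). An untemplated last base of any kind was found in 10.7% to 11.6% against 2.36% to 2.48% of the miR-103-3p counts and in 12.3% to 14.2% against 7.62% to 9.30% of the miR-107-3p counts, each without overlap. An added A after base 23 would match the genome at all 3 loci and cannot be seen. In MIN6, an untemplated last U was found in 10.6%, 9.64% and 10.3% of the miR-103-3p counts in TS-GAIIx and in 2.29%, 2.32% and 2.20% in v1.5-GAIIx. For miR-107-3p it was found in 12.9%, 13.5% and 11.3% in TS-GAIIx and in 7.33%, 6.33% and 5.40% in v1.5-GAIIx. Both members had lower shares in all v1.5-GAIIx libraries (p = 0.1 each, exact two-sided permutation test), as had 109 of 312 entries (34.9%), while 121 (38.8%) had higher ones. In NF-HiSeq the members parted, with 15.5% for miR-103-3p (95% Wilson interval 15.3% to 15.8%) and 4.27% for miR-107-3p (3.78% to 4.83%).

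Liver had the highest shares of U-tailed reads, and miR-107-3p the higher of the 2 members. In TS-HiSeq-ML, 58.6% of the miR-107-3p counts (95% Wilson interval 57.7% to 59.4%) and 23.6% of the miR-103-3p counts (23.2% to 24.1%) ended in an untemplated U. In NF-HiSeq-ML these shares were 29.0% (27.94% to 29.98%) and 22.7% (22.1% to 23.3%). Across the 158 entries with enough reads in both liver libraries the median share was 8.05% with TruSeq and 3.04% with NEXTflex, and miR-107-3p ranked 2 and 17 while miR-103-3p ranked 27 and 30. The intervals cover counting error only, and there is 1 library of each kit.

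A single form made up most of the U-tailed miR-107-3p in TS-HiSeq-ML. Its 22-nt form with 1 U accounted for 6566 of 12757 counts (51.5%, 95% Wilson interval 50.6% to 52.3%), more than the unedited 22-nt and 23-nt forms with 2107 and 1367 counts. In NF-HiSeq-ML the same form, from RNA of the same liver, held 492 of 7554 counts (6.51%, 5.98% to 7.09%), and in NF-HiSeq 3 of 5732 (0.0523%, 0.0178% to 0.154%). In MIN6 it was 8.34% to 10.1% of miR-107-3p in TS-GAIIx and 1.53% to 2.48% in v1.5-GAIIx, a 5.07-fold difference of mean RPMM in favour of TruSeq. With both tissues, TruSeq thus gave more of this form than the other kit or kits. The 23-nt form with 1 U went the other way in liver, at 2.34% of miR-107-3p with TruSeq (299 counts) and 12.3% with NEXTflex (927 counts). In MIN6 it was 1.00% to 1.17% in TS-GAIIx, 1.76% to 2.95% in v1.5-GAIIx and 0 of 5732 counts in NF-HiSeq. That 0 allows up to 0.0523% if reads were counted independently. For miR-103-3p the 22-nt form with 1 U was 13.4% of the counts in TS-HiSeq-ML and 8.72% in NF-HiSeq-ML, a smaller gap than for miR-107-3p.

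**Figure D4:**
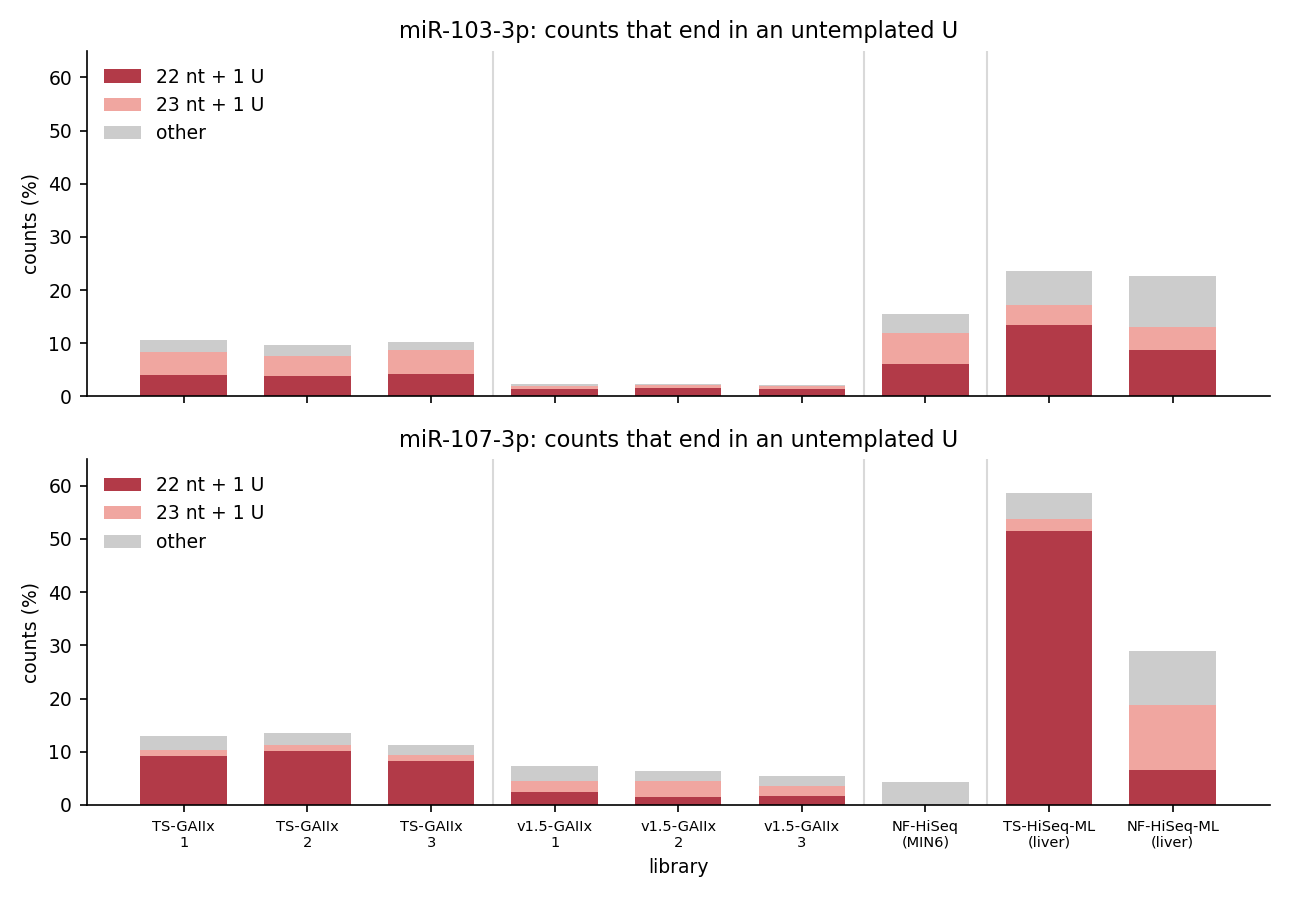
Counts of miR-103-3p (top) and miR-107-3p (bottom) that end in an untemplated U, as a percent of the counts of that miRNA in each library, split into 22 nt with 1 U (dark), 23 nt with 1 U (light) and other forms (grey). The 22-nt form with 1 U reaches 51.5% of miR-107-3p in TS-HiSeq-ML, against 6.51% in NF-HiSeq-ML and 8.34% to 10.1% in TS-GAIIx.

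Edits inside the sequence, without an untemplated last base, varied between libraries of a group. miR-103-3p had 0.887% to 3.78% of counts with only such edits in TS-GAIIx and 1.22% to 5.02% in v1.5-GAIIx, with overlapping ranges (p = 0.8, exact two-sided permutation test). For miR-107-3p the shares were 0.890% to 2.92% in TS-GAIIx and 5.15% to 8.76% in v1.5-GAIIx, without overlap (p = 0.1, exact two-sided permutation test), and they hold the reads with A or U at position 22. In TS-GAIIx replicates 1 and 2 the commonest was A7C, at 1.47% and 2.91% of the miR-103-3p reads of 20 nt or longer and 1.03% and 2.71% of those of miR-107-3p, while replicate 3 had at most 0.0793% at any of the first 20 positions of miR-103-3p. In v1.5-GAIIx replicate 1, position 4 differed from the genome in 1.34% of the miR-103-3p and 1.26% of the miR-107-3p reads. These positions were shared by both members in the same libraries and were absent from the other replicates at that level. For miR-107-3p, mismatches at position 7 rested on 5.33 and 14.3 counts in TS-GAIIx replicates 1 and 2. The fractions show that these include reads divided among the loci, which are counted at both members. In NF-HiSeq-ML, G10A stood at 1.48% of miR-107-3p and rested on 1 form with 112 counts.

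Long reads of miR-107-3p were unevenly spread in NF-HiSeq. Reads of 24 nt had 0 counts, which allows a share of up to 0.0523% if reads were counted independently. Reads of 25 nt made up 7.10%, of which 2 forms held 236 and 158 counts.

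Shifted starts change the seed, and in MIN6 the main one of this family was a miR-103-3p that begins 2 nt downstream. Its sequence is shown with its own seed in capitals.
miR-103-3p start shifted by 2 nt: cAGCAUUGuacagggcuauga
This form was at 38.6, 36.1 and 39.0 RPMM in TS-GAIIx and at 364, 377 and 396 RPMM in v1.5-GAIIx, a 10.0-fold difference close to that of the reference start. In the edgeR quasi-likelihood test it was higher in v1.5-GAIIx by 3.32 on the log2 scale (SE 0.0645, Benjamini-Hochberg adjusted p = 4.96e-12). As a share of all counts within 5 nt of the start it made up 4.75% to 5.25% in TS-GAIIx, 4.32% to 4.39% in v1.5-GAIIx, 2.22% in NF-HiSeq, 0.272% in TS-HiSeq-ML and 0.849% in NF-HiSeq-ML. The last value rests on 1 edited form at Mir103-2 that held 144 of its counts (96.0%), and 21-nt reads, which were 79.0% to 89.4% of this start in the other libraries, were 1.33% there. A start 1 nt upstream was found in 0.996% and 1.47% of the miR-103-3p counts of the TruSeq and NEXTflex liver libraries and in at most 0.335% in MIN6. All shifted starts of miR-103-3p together were 5.03% to 5.44% in TS-GAIIx and 4.80% to 5.03% in v1.5-GAIIx, which overlap (p = 0.2, exact two-sided permutation test). The difference was -0.292 percentage points, and the groups separated within a window of 3 nt (-0.484) and with exact alignments only (-0.322), each with p = 0.1 by the same exact permutation test. For miR-107-3p they were 0.973% to 1.504% in TS-GAIIx and 3.43% to 4.64% in v1.5-GAIIx, without overlap (p = 0.1, exact two-sided permutation test), 0.830% in NF-HiSeq, 1.02% in TS-HiSeq-ML and 0 of 7554 counts in NF-HiSeq-ML, which allows up to 0.0397%.

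The copies of miR-103 could be separated only by reads that pass base 24. The 2 starts held near equal counts, for example 375 and 376 RPMM in TS-GAIIx replicate 1 and 3974 and 3977 RPMM in v1.5-GAIIx replicate 1, because shared reads were divided evenly. Unedited 25-nt reads were more frequent at Mir103-2 in the GAIIx and liver libraries, at 1.16 to 1.61 RPMM against 0 to 0.249 RPMM at Mir103-1 in TS-GAIIx and at 2.86 to 3.37 RPMM against 0.476 to 1.09 RPMM in v1.5-GAIIx. In liver they were at 13.4 RPMM against 0.546 RPMM with TruSeq and at 35.5 RPMM against 0 with NEXTflex. At Mir103-2 the genome continues with A at both of these positions, so added A bases would be counted there, and the use of the copies cannot be told apart from A-tailing.

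The passenger arms, from the other side of the hairpins, were scarce. miR-103-2-5p was at 3.31 to 3.72 RPMM in TS-GAIIx and 5.12 to 7.08 RPMM in v1.5-GAIIx, without overlap. miR-103-1-5p was at 0.301 to 0.365 RPMM and 0.964 to 1.23 RPMM, also without overlap, on 2 to 4 and 10.5 to 15.5 counts per library. miR-107-5p was at 1.90 to 2.24 RPMM in TS-GAIIx and 0.443 to 1.01 RPMM in v1.5-GAIIx, so that it was the passenger arm that stood higher with TruSeq. All 3 had 0 counts in both NEXTflex libraries, and in TS-HiSeq-ML they had 0 to 14 counts. If reads were counted independently, the 0 counts allow up to 0.117 RPMM in NF-HiSeq and 0.209 RPMM in NF-HiSeq-ML. The median exact alignment with a whole-number count held 35 and 48 counts there and 1 in the other libraries, so these limits may be too low.

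Other miRNAs that share the AGCAGC hexamer were compared with the family because they are often grouped with it and regulate cell cycle genes. The hexamer, in capitals, starts at base 1 in miR-103-3p and at base 2 in the miR-15/16 family.
miR-103-3p: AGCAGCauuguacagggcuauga
miR-15a-5p: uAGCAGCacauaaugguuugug
miR-15b-5p: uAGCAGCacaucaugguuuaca
miR-16-5p: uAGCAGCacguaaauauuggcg
miR-195a-5p: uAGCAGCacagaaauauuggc
Of the 7 listed miRNAs, 5 were tested in 6 entries, of which v1.5 gave more of 2 and TruSeq more of 4 by the edgeR quasi-likelihood test, with a median log2 difference of -1.35 beside 0.68 over all 350 entries, of which v1.5 gave more of 56.3% and TruSeq more of 36.3%. Both copies of miR-16-5p are counted, and with 1 value for each mature sequence the tally was 2 against 3 and the median -0.57. miR-322-5p and miR-503-5p were not placed. miR-15a-5p was at 127 to 131 RPMM in TS-GAIIx and 733 to 817 RPMM in v1.5-GAIIx, 6.03-fold higher with v1.5, and miR-497-5p was 3.22-fold higher. miR-16-5p, by contrast, was at 4437 to 4829 RPMM in TS-GAIIx and 1024 to 1076 RPMM in v1.5-GAIIx. With miR-16-5p at 10018 RPMM in NF-HiSeq, it exceeded miR-103-3p there, as it did in TS-GAIIx, whereas in v1.5-GAIIx miR-103-3p was the higher of the pair.

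A list of miRNAs known for roles in insulin secretion or action was read beside the family. Of its 9 miRNAs, 8 were tested in 12 entries, of which v1.5 gave more of 8 and TruSeq more of 4 by the same test, with a median log2 difference of 1.79. Over all 350 entries v1.5 gave more of 56.3% and TruSeq more of 36.3%, and the 12 entries hold miR-7a-5p, miR-24-3p, miR-26a-5p and miR-29b-3p as 2 copies each of 1 mature sequence. With 1 value for each sequence, v1.5 gave more of 5 and TruSeq more of 3, with a median of 0.95. miR-24-3p was at 800 to 824 RPMM in TS-GAIIx and 27761 to 31109 RPMM in v1.5-GAIIx, and miR-26a-5p at 34163 to 35370 RPMM against 5692 to 6241 RPMM. miR-143-3p was under the limit in MIN6 and at 9373 and 1745 RPMM in liver.

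Over the 9 libraries the entries most like miR-103-3p on the log2(RPMM + 1) scale were miR-140-3p (Pearson r = 0.970), miR-15a-5p (0.948) and let-7f-2-5p (0.947), and those most like miR-107-3p were miR-31-5p (0.971), miR-122-5p (0.95) and miR-802-5p (0.926). The 2 members themselves had r = -0.17. These values are descriptions over 9 libraries that share kits and RNA, and the first 3 entries were highest in the v1.5-GAIIx libraries, while the last 3 were highest in NF-HiSeq-ML.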

How the data were processed

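Each of the 9 libraries came as a list of distinct alignments with position, edit string and an expected count that the authors deposited. Per the labels, reads were trimmed with cutadapt and aligned with Bowtie to mm9 (versions not given in the sources used here). The study trimmed 4 degenerate bases from each end of NEXTflex reads. Reads with several equally good places were divided among them, and the counts exceed the mapped reads by 0.264% to 8.41%.

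For each 5′ end the expected counts were added up and scaled by mapped reads to RPMM. All 358 and 178 table entries were placed by equal values (relative tolerance 3e-05), 13 and 4 of them at several positions. Counts within 1e-09 of an integer were called whole. For edgeR 4.0.16 (quasi-likelihood, Benjamini-Hochberg), counts were rounded to whole numbers, library sizes were mapped reads, and entries needed 100 RPMM in 1 MIN6 library. SE is the log2 difference over the square root of F. In simulated v1.5 against TruSeq counts for 350 entries, 199 of 200 changed entries (99.5%) and 8 of 150 unchanged ones were called. Other libraries entered no test. Lengths and shares were compared by exact permutation, where 0.1 is the smallest p. Read-form backgrounds needed 50 counts per library. A count of 0 was taken to allow up to 3 counts, which assumes reads counted independently and may be too few for the NEXTflex libraries. Intervals cover counting error only. Replicate pairs differed by more than sampling noise (chi-square per degree of freedom 29.1 to 102). An edit letter is the read base: 0 of 61216 mismatch counts equal the genome base. The members, the lists and the rule for named miRNAs (the members, their starts and arms, both lists, and 3 entries most like each member) were chosen with earlier results of these data known. Alternatives were TMM factors, DESeq2 1.42.0 size factors and test, other library sizes, filters and read sets, and leaving out libraries. R 4.3.3, Python 3.11.15, pandas 2.3.3 and SciPy 1.17.1 were used.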

Additional observations from a re-analysis of the deposited data

Results flagged for a closer look

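NEXTflex and TruSeq differed in opposite directions in MIN6 and in liver for several measures of the family. The differences between sources were not tested, since each NEXTflex group has 1 library, and in MIN6 the RNA and the platform differ as well. The level of miR-103-3p was 3.51 times that of TS-GAIIx in NF-HiSeq and 0.575 times that of TS-HiSeq-ML in NF-HiSeq-ML. For miR-107-3p these values were 2.92 and 0.679, the latter turning in direction with exact alignments only, and for the ratio of miR-103-3p to miR-107-3p they were 1.20 and 0.847. With exact alignments only, the ratio was 9.49 to 9.95 in TS-GAIIx, 10.3 in NF-HiSeq, 5.22 in TS-HiSeq-ML and 2.52 in NF-HiSeq-ML. Over all entries, the median log2 difference of NEXTflex against TruSeq was 0.07 in MIN6 and -0.80 in liver. Whether the turn in level is particular to the family was not tested. The share of miR-103-3p counts with an edit was higher with NEXTflex by 3.97 percentage points in MIN6 and differed by -2.66 points in liver, and the share with an untemplated last base differed by 4.35 and -1.77 points. The share of shifted starts of miR-103-3p differed by -2.20 points in MIN6 and 0.978 points in liver, where 144 counts of 1 edited form make up most of the start at 2 nt.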

How the results depend on the processing

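Of 195 values recomputed under an alternative, 162 were labelled unchanged, by rules that differ. Levels in the edgeR test had to keep their direction and side of the threshold. The number of calls had to stay within a set factor, and levels in single libraries within their Poisson interval. Ratios, lengths and shares had only to keep their sign, since their exact p cannot reach the threshold. A difference that shrank therefore still counts among the 162. With whole-number counts only, a choice that keeps a halved miR-103-3p count only when it is even, the log2 difference of miR-103-3p was 0.80 and did not pass edgeR's test (adjusted p = 0.538), that of miR-107-3p was 0.0496, the difference in log2 ratio was 1.74, and the difference in mean length was -0.504 nt for miR-103-3p and 0.377 nt for miR-107-3p. For miR-107-3p the log2 difference was -0.60 with TMM factors, -0.69 with DESeq2 size factors and 0.17 with reads of 22 nt or longer, all past the threshold. With DESeq2 size factors the calls were 167 higher and 164 lower, against 197 and 127. The number of calls was 28008 of 54056 5′ ends without a filter and 146 of 155 entries at 500 RPMM. Leaving out each library in turn gave log2 differences of 3.48 to 3.54 for miR-103-3p and -0.11 to -0.04 for miR-107-3p, 312 to 321 calls, and a difference in the share of miR-107-3p counts with an edit of -1.69 to 0.707 percentage points, the one difference that changed sign. Replicates of the 2 kits share only a number: same-numbered libraries deviated together with r of 0.0956, 0.187 and 0.191, each the best match of its library, and with a replicate block edgeR called 328 entries and gave 3.51 for miR-103-3p. In the single libraries, in the order NF-HiSeq, TS-HiSeq-ML and NF-HiSeq-ML, exact alignments only gave 2097, 1499 and 894 RPMM of miR-103-3p and 204, 288 and 355 RPMM of miR-107-3p. Whole-number counts gave 2138, 1358 and 126 RPMM of miR-103-3p and, in the liver libraries, 691 and 477 RPMM of miR-107-3p. Reads of 22 nt or longer gave 2515, 1958 and 1157 RPMM and 209, 709 and 503 RPMM, and all starts within 5 nt gave 2625, 2116 and 1229 RPMM of miR-103-3p. The sum of all counts as library size gave 1926 and 714 RPMM in TS-HiSeq-ML. Depth limits the forms of miR-107-3p, at 513 to 899 counts per GAIIx library, and the passenger arms, at 2 to 84.5 counts.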
